A study of Saccharomyces cerevisiae with 14 samples.

Results

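Divergent promoters are the stretches of DNA between neighboring genes that are transcribed away from each other. Over the 7 peak lists of Sef1 ChIP-seq, 527 of 3812 peaks (13.8%) lay in such a promoter. A peak was counted when its position fell between a protein-coding gene on the minus strand and the next one on the plus strand, outside both coding sequences, at most 1000 bp from each ATG, and with no tRNA gene within 500 bp. Overlapping intervals were merged, which turned these peaks into 126 sites of 1066 in all, spread over 118 promoters. Of the 126 sites, 84 were called in at least 3 lists of a medium, and these 84 sites in 81 promoters are the ones described below unless stated otherwise. Positions and gene names follow the S288C reference genome R64.

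The cells were the W303 strain W303ScSef1TAPNB1-1, which is MATa with the alleles his3-11,15, trp1-1, ura3-1 and ade2-1, the leu2 alleles 3 and 112, and can1-100, and in which the chromosomal SEF1 gene carries a TAP tag (SEF1-TAP::FRT). This strain was used in both media. Cultures were started at 0.2 OD per ml and kept at 30°C for 4.5 h in fermentative medium with glucose (YPD, 4 repeats) or respiratory medium with glycerol (YPGly, 3 repeats). The density at harvest was 1.0 OD per ml in YPD and 0.4 in YPGly, and each YPD sample was made from 1500 OD of cells (in 3 pooled portions) against 500 OD for YPGly, so carbon source, culture density and amount of cells cannot be told apart. Per the labels, each ChIP library was paired with an input library for peak calling. For 2 YPGly libraries the title says ChIP while the description names a ChIP as the partner, and 5 lists are attached to samples titled as input, so lists are used here only by medium and repeat. No untagged strain was analysed here. The 14 samples gave 7 peak lists, of 528, 771, 615 and 610 peaks in YPD repeats 1 to 4 and of 520, 373 and 395 peaks in YPGly repeats 1 to 3. Read numbers are not in the lists, and the paper gives only an approximate depth common to its libraries. The depth of each list is thus unknown, and errors are the SD between lists, or the limma SE where named. YPGly repeat 3 was sequenced apart from the others, in read pairs, and without it 12 sites rose and 17 fell in the comparison of the media below, against 11 and 18 with it.

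Sef1 belongs to the zinc cluster proteins, fungal transcription factors that contact CGG triplets in DNA, often as pairs in opposite orientation at a fixed spacing. In the yeast Candida albicans, Sef1 activates genes of iron uptake. A factor bound in a divergent promoter lies upstream of both genes at once, so that binding by itself does not tell which of them it may act on. Glycerol cannot be fermented and is used through respiration, for which the TCA cycle, the respiratory chain and the carriers of the mitochondrial inner membrane are needed.

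The DNA under the sites that carry most of the following results is shown first, as 161 bases of the plus strand of the R64 reference centered on the site (80 bases on each side). The cells were W303, and the sequence of that strain was not read here. Capitals mark the Sef1 pattern as it was searched, CCG and CGG with any 5 bases between them (11 bases), which reads the same on both strands. The 2 sites of highest enrichment come from chrXIV:559312-559472, between IDH1 (a subunit of mitochondrial isocitrate dehydrogenase) and NCE103 (carbonic anhydrase), and from chrXVI:297154-297314, between GIP3 (a protein that interacts with the phosphatase Glc7) and ISU1 (the scaffold on which iron-sulfur clusters are built).
IDH1-NCE103: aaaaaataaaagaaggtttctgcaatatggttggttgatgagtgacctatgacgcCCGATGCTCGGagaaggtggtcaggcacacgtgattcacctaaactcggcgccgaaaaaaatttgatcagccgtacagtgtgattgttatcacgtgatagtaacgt
GIP3-ISU1: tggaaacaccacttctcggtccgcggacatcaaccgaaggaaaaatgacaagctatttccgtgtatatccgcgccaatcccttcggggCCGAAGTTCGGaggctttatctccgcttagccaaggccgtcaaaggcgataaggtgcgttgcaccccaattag

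The next group holds 4 sites with the pattern whose enrichment was far higher in YPGly. They lie at chrXIV:405823-405983 between DCP2 (the mRNA decapping enzyme) and MLS1 (malate synthase of the glyoxylate cycle), at chrXIII:91160-91320 between RPM2 (the protein subunit of mitochondrial RNase P) and UFO1 (an F-box protein), at chrXVI:46949-47109 between KEL3 (a kelch-repeat protein) and FUM1 (fumarase of the TCA cycle), and at chrVII:976972-977132 between YAP1802 (a clathrin assembly protein) and MPC3 (a subunit of the mitochondrial pyruvate carrier). In DCP2-MLS1 the first 2 capital stretches mark the carbon source response element, the sequence bound by the activators Cat8 and Sip4, and the last 2 mark the Sef1 pattern.
DCP2-MLS1: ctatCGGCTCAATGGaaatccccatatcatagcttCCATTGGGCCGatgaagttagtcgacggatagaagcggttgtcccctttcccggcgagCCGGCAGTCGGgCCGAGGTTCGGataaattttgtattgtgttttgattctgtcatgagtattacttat
RPM2-UFO1: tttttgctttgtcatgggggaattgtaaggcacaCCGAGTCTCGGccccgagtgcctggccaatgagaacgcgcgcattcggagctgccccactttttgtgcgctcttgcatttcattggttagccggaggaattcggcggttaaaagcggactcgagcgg
KEL3-FUM1: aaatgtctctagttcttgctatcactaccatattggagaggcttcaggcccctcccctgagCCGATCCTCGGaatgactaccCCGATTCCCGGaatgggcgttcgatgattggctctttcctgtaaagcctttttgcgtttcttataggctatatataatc
YAP1802-MPC3: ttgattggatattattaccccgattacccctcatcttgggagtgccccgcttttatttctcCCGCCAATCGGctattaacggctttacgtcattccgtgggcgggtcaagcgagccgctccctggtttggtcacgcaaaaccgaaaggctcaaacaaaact

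Another 2 sites are shown because they differ from these in sequence or in level. MDH2-TRM13 (chrXV:83255-83415), between MDH2 (cytosolic malate dehydrogenase) and TRM13 (a tRNA methyltransferase), holds no Sef1 pattern, and its capitals mark a carbon source response element. GAL10-GAL1 (chrII:278536-278696), the classic promoter between the epimerase and the galactokinase of galactose use, holds 1 Sef1 pattern in capitals.
MDH2-TRM13: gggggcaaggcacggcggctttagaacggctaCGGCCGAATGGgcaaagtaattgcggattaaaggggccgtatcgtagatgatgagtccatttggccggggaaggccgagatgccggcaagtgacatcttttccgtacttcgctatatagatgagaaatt
GAL10-GAL1: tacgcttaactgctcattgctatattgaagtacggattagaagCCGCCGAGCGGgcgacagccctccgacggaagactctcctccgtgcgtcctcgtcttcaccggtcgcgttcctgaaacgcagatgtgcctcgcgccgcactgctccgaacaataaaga

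The genome has 1420 divergent promoters with at least 1 base that meets the rule, and together these bases make up 5.58% of the nuclear genome. A site was found in 81 of them (5.70%). Promoters with a site were long: their median length between the ATGs was 794 bp, against 452.5 bp for the 1302 promoters without any site. None of the 253 promoters of up to 250 bp had a site. The share was 0.825% (4 of 485) from 251 to 500 bp, 8.55% (29 of 339) from 501 to 750 bp, 15.1% (26 of 172) from 751 to 1000 bp and 12.9% (22 of 171) from 1001 to 2000 bp. The shortest bound promoter was the 280 bp between TYC1 and MAL33, a zinc cluster activator of maltose genes. Long promoters offer more bases to a peak, so these shares describe where sites lie and were not tested.

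**Figure D1:**
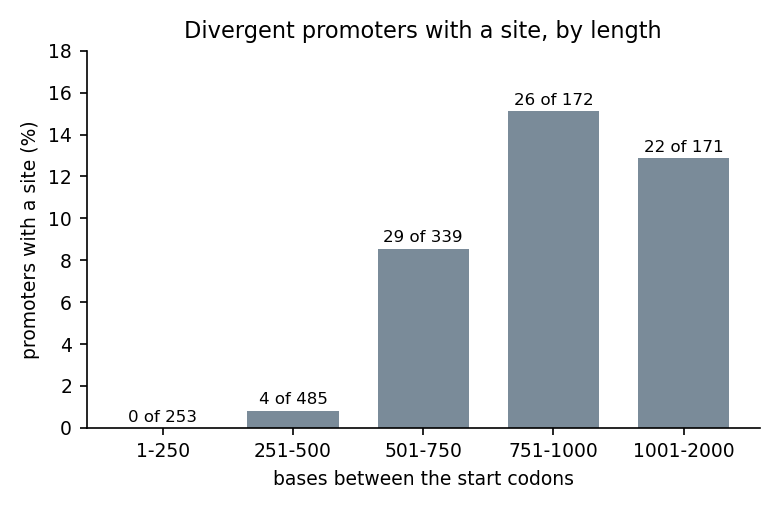
Share of divergent promoters with a site of at least 3 calls (bars, in %) by the number of bases between the start codons, with the numbers of promoters above the bars. No promoter of 1 to 250 bp had a site, and the share reached 15.1% at 751 to 1000 bp.

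Within their promoters the sites lay near the middle. The median distance was 309 bp to the nearer ATG and 511.5 bp to the farther one, and 66 of 84 sites (78.6%) fell in the middle part of the promoter, between 1/3 and 2/3 of the way from one ATG to the other. Of the bases that the rule allows in the same promoters, 39.7% fall there. For 13 sites the nearer ATG was within 200 bp. ATP14-YLR296W came closest, 35 bp from the ATG of YLR296W and 570 bp from that of ATP14 (a subunit of the ATP synthase), and SEC10-RPS31 lay 37 bp from the ATG of RPS31. The rule itself sets the outer limit. The farthest member peak was 1000 bp from an ATG and the nearest peak left out was 1001 bp away, and 296 peaks between divergent genes were left out by this limit and 161 by the tRNA rule alone. The 40 sites called in all 7 lists kept their place, since the positions in the 7 lists spanned a median of 26.5 bp (3 to 174.5 bp).

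**Figure D2:**
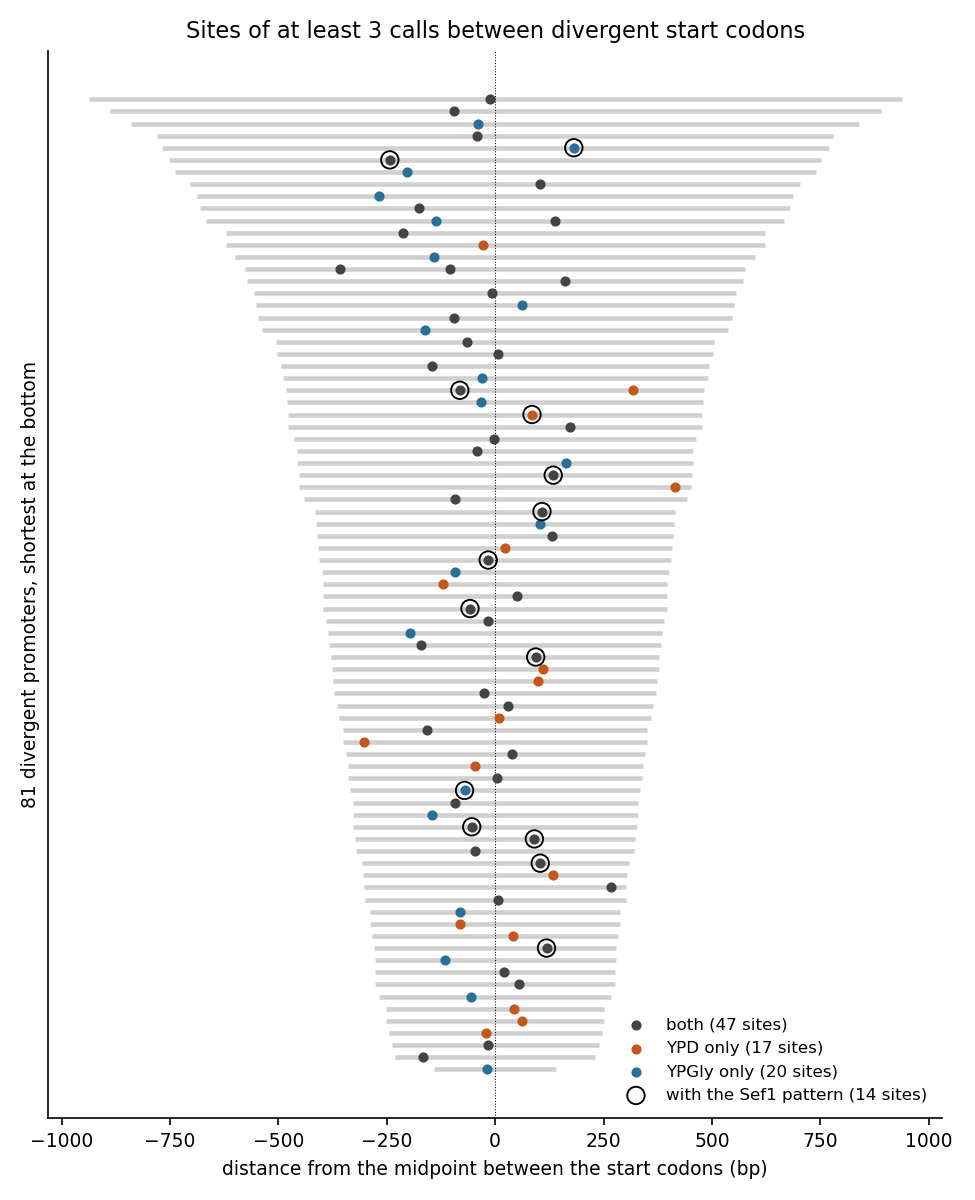
Each grey line is 1 of the 81 divergent promoters with a site, drawn to scale from one start codon to the other in bp around its midpoint, and each point is a site, colored by the medium with at least 3 calls. Rings mark the 14 sites with the Sef1 pattern in 250 bp, and 66 of the 84 points lie in the middle part of their promoter.

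Most promoters (78) had 1 site and 3 had 2 sites. In SKS1-RMI1, between a protein kinase gene and a subunit of the Sgs1-Top3 complex, the sites were 273 bp apart. One was called in all 7 lists, with enrichments of 1.66, 1.77, 1.48 and 1.58 in YPD and 4.75, 4.14 and 4.74 in YPGly. The other was called in every YPGly list (5.30, 4.78 and 4.18) and in YPD repeat 2 alone (1.66). In YGR050C-FMP48, beside a gene for a mitochondrial protein, the sites were 254 bp apart and close in level, with means of 4.45 and 4.48 in YPGly. In GLY1-IES6, between threonine aldolase and a subunit of the INO80 chromatin remodeler, they were 399 bp apart. There the site with the pattern was called in all 7 lists, and the other was called in 3 YPD lists (1.72, 1.33 and 1.40) and in no YPGly list. Another 3 sites held 2 peaks of the same list that the merging of intervals joined into 1 site, with the mean of both as its enrichment: GID8-GAT2 in 6 lists (230 to 252 bp apart), PUT4-CIN1 in 3 lists (243 to 253 bp) and ELO1-CDC6 in 1 list (202 bp).

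Enrichment, the fold ratio of ChIP over input that the authors deposited for each peak, ranged from 0.99 to 329 over the 527 peaks, with a median of 1.87. A few sites stood far above the rest. At 10 sites the mean was at least 10 in a medium, at 31 sites the higher mean was between 2 and 10, and at 43 sites it was under 2. All 10 of the strong sites, 22 of the 31 and 15 of the 43 were called in both media.

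IDH1-NCE103 was the strongest site in both media. Its enrichment was 318, 184, 276 and 329 in YPD repeats 1 to 4 and 130, 122 and 133 in YPGly repeats 1 to 3. Every YPD value lay above every YPGly value. GIP3-ISU1 followed, with 128.02, 86.3, 94.5 and 131 in YPD and 89.1, 71.9 and 82.7 in YPGly, and here the groups overlapped. SPT8-ERG3, between a subunit of the SAGA coactivator and the sterol desaturase gene ERG3, had 12.8, 10.5, 9.60 and 13.2 in YPD and 34.8, 23.1 and 29.6 in YPGly. SDS23-OLE1, upstream of the fatty acid desaturase gene OLE1, had 21.1, 13.9, 15.9 and 20.3 in YPD and 29.1, 20.4 and 24.9 in YPGly. The YPGly lists were higher throughout at SPT8-ERG3 and overlapped with YPD at SDS23-OLE1.

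DCP2-MLS1 was weak in YPD and among the strongest sites in YPGly. Its enrichment was 2.41, 2.27, 2.10 and 2.81 in YPD against 75.0, 60.9 and 75.0 in YPGly, a ratio of the means of 29.3. At RPM2-UFO1 the values were 8.14, 5.94, 6.29 and 8.36 in YPD and 62.1, 42.8 and 49.4 in YPGly. At KEL3-FUM1 they were 8.04, 5.10, 6.39 and 8.26 in YPD and 49.4, 40.7 and 43.1 in YPGly. The groups were apart at all 3 promoters, each with a mean over 40 in YPGly. MDH2-TRM13 had 2.87, 2.35, 2.48 and 2.96 in YPD and 18.8, 14.3 and 17.9 in YPGly. YAP1802-MPC3 had 1.96, 1.80, 1.71 and 2.19 in YPD and 15.6, 11.4 and 11.7 in YPGly. YPR148C-NCE102, upstream of a gene for a protein of the eisosome, a furrow of the plasma membrane, had 5.58, 5.93, 4.98 and 6.79 in YPD and 15.4, 9.80 and 10.8 in YPGly. At these 3 promoters too, no YPD value reached the lowest YPGly value.

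**Figure D3:**
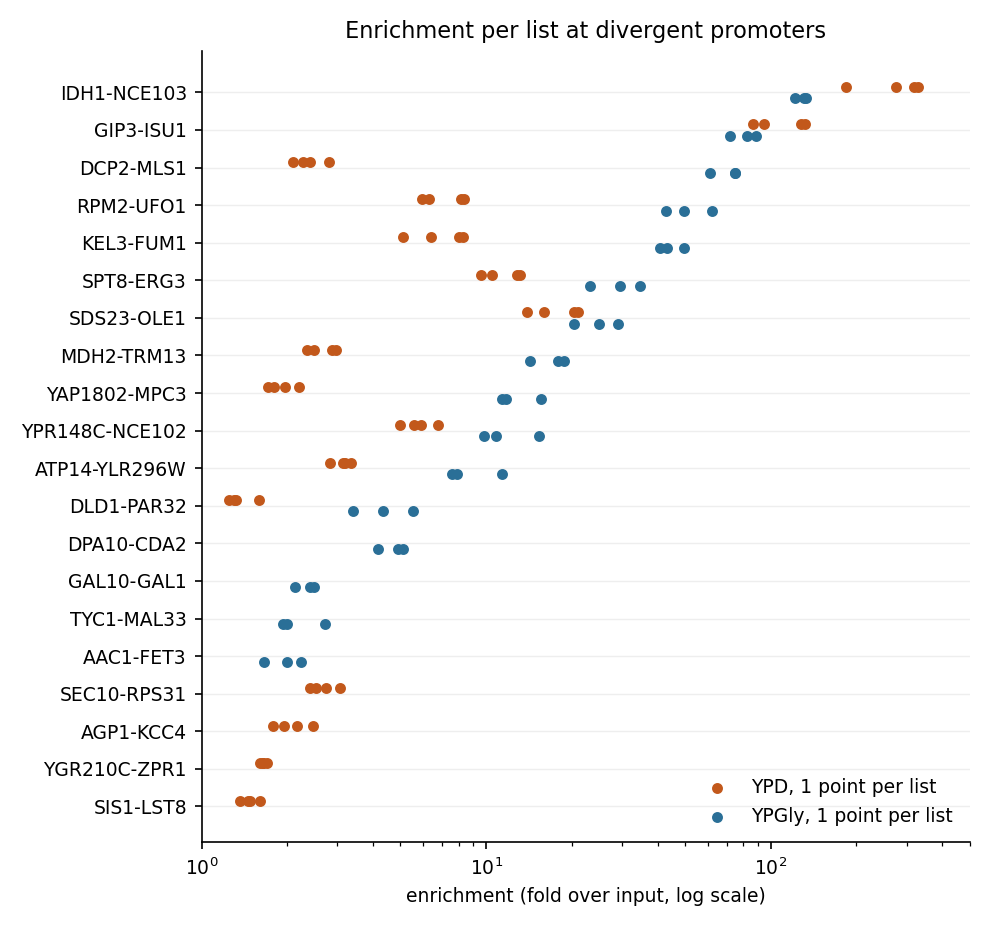
Enrichment over input (log scale) in each list at 20 named divergent promoters, with 1 point per list, YPD in orange, YPGly in blue and no points where no list of a medium called the site. At DCP2-MLS1 the YPD points lie at 2.10 to 2.81 and the YPGly points at 60.9 to 75.0.

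The question of which sites differ between the media was put to the sites called in all 7 lists, 40 of them in divergent promoters and 203 in all. Each list was centered on its median over the 203 sites, and limma was run on log2 enrichment. The median of a list over these sites was 0.70 higher on the log2 scale in YPGly, and changes are relative to this shift. Of the 40 sites, 11 rose and 18 fell in YPGly relative to the median site, at a Benjamini-Hochberg adjusted p under 0.05 over all 203. Over all 203 sites 29.6% rose and 53.2% fell, so the shares of 27.5% and 45.0% in divergent promoters were near the background. The median change was -0.16 in divergent promoters and -0.30 over all 203. Without centering, 24 of the 40 sites were higher in YPGly and 2 lower, against 51.7% and 8.87% of all 203. With quantile normalization, 12 of the 40 were higher and 12 lower, against 63 and 72 of all 203. Of the 40, 9 sites were higher and IDH1-NCE103 and GIP3-ISU1 lower under all 3 scalings, which was not counted over all 203.

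Among these 9, DCP2-MLS1 rose most, by 4.17 ± 0.10 on the centered log2 scale (SE, limma adjusted p = 1.64e-18). RPM2-UFO1 rose by 2.14 ± 0.09 (adjusted p = 3.47e-14), YAP1802-MPC3 by 2.04 ± 0.09 (5.21e-14), KEL3-FUM1 by 2.00 ± 0.11 (1.01e-12) and MDH2-TRM13 by 1.97 ± 0.09 (1.01e-13). These 5 promoters hold genes of the TCA and glyoxylate cycles, of mitochondrial pyruvate import and of mitochondrial RNA processing, each beside a gene of another role. DLD1-PAR32, upstream of the mitochondrial D-lactate dehydrogenase gene DLD1, had 1.25, 1.33, 1.30 and 1.60 in YPD and 5.54, 3.41 and 4.34 in YPGly, and rose by 0.97 ± 0.10 (limma adjusted p = 3.48e-08). The other 3 were STP4-SIT4, beside a phosphatase gene, at 0.88, ATP14-YLR296W at 0.79 and SKS1-RMI1 at 0.79. SPT8-ERG3 (0.63) and YPR148C-NCE102 (0.33) rose in the centered fit, but with quantile normalization their changes were -0.12 and -0.18 and did not pass.

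In the other direction, IDH1-NCE103 fell by 1.77 on the centered log2 scale (SE 0.13, limma adjusted p = 1.33e-10) and by 1.07 without centering. GIP3-ISU1 fell by 1.12 (SE 0.10, adjusted p = 5.83e-09) and by 0.42 without centering. The remaining 16 falls were relative to the shift of the lists. OCA5-WSC4, upstream of a cell wall stress sensor gene, had 2.72, 2.03, 2.25 and 2.55 in YPD and 2.19, 1.55 and 1.86 in YPGly, with a centered change of -1.06 and one of -0.36 without centering (adjusted p = 0.0616, limma). ATG39-MRPL15, between a receptor of nuclear autophagy and a mitochondrial ribosomal protein, had changes of -1.04 and -0.34. YLR255C-HAP1, upstream of the heme-responsive activator HAP1, had -0.77 and -0.07, and ASK1-SFK1, beside a kinetochore gene, had -0.76 and -0.06. For HAP1 the enrichments themselves were 1.92, 1.76, 1.79 and 1.76 in YPD and 2.09, 1.50 and 1.63 in YPGly, which overlap. Of the 18 falls, 11 had the opposite sign without centering, among them SDS23-OLE1 (-0.22 and 0.48).

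**Figure D4:**
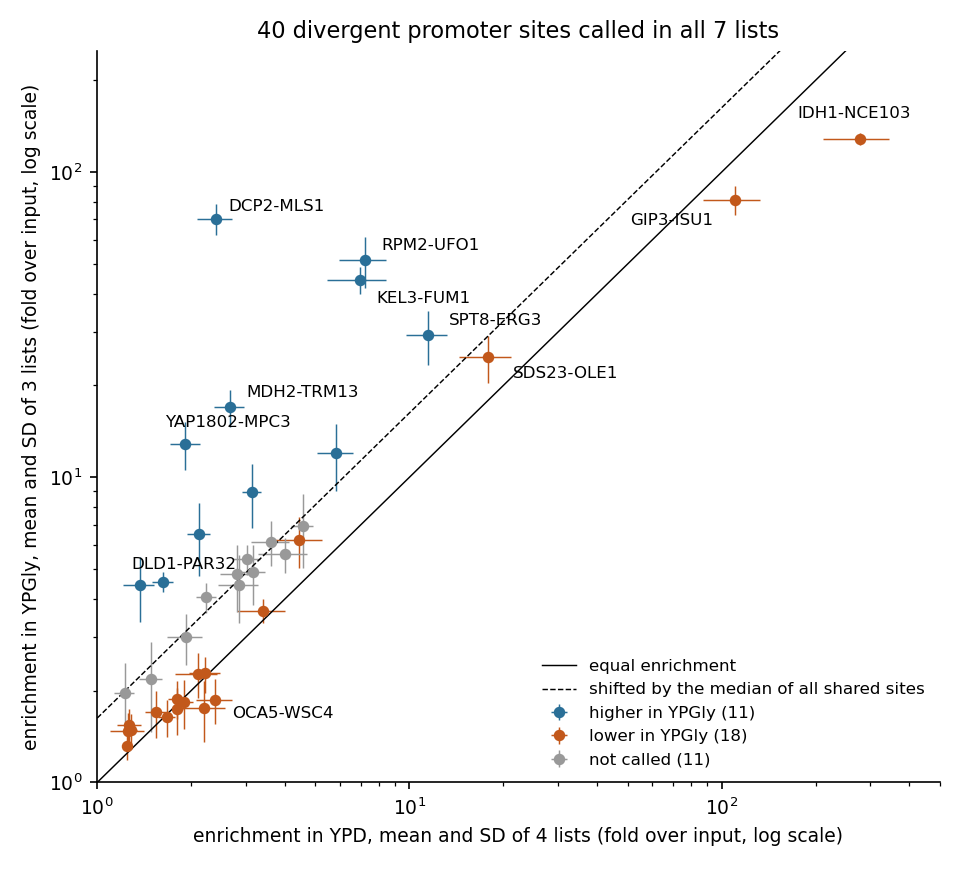
Mean enrichment in YPD (4 lists) against YPGly (3 lists) at the 40 divergent promoter sites called in all 7 lists, both axes log-scaled as fold over input, with SD bars. Blue points (11) rose and orange points (18) fell relative to the dashed line, which is shifted by the median of all 203 shared sites, and most orange points other than IDH1-NCE103 and GIP3-ISU1 lie near the solid line of equal enrichment.

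Sites with at least 3 calls in only 1 of the media were mostly weak. Of the 84 sites, 47 had at least 3 calls in both media, 17 in YPD only and 20 in YPGly only. The rule asks for 3 of 4 lists in YPD but for all 3 lists in YPGly. Such sites could still have 1 or 2 calls in the other medium. Of the 17, 11 had no YPGly call, and of the 20, 10 had no YPD call. The YPD-only count was 10 without YPD repeat 2, 3 or 4 and 7 with lists of equal length. Over all 645 sites of the genome with 3 calls, 34.9% belonged to both media, 48.4% to YPD only and 16.7% to YPGly only. The divergent promoters therefore held 56.0% shared, 20.2% YPD-only and 23.8% YPGly-only sites, and the 161 sites in tandem promoters (1 gene downstream, at most 1000 bp from its ATG) held 50.9%, 21.1% and 28.0%. These shares describe the sites and were not tested.

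Of the 20 YPGly-only sites, 10 had no call in any YPD list. The strongest of these 10, DPA10-CDA2, lies upstream of a chitin deacetylase gene used in spore wall formation. It had enrichments of 4.92, 4.17 and 5.11 in YPGly repeats 1 to 3. GAL10-GAL1 followed with 2.41, 2.13 and 2.48, and TYC1-MAL33 with 2.71, 1.94 and 2.00. AAC1-FET3, between an ADP/ATP carrier of the mitochondrial inner membrane and the multicopper oxidase of iron uptake, had 2.23, 1.66 and 2.00. ATO3-EFT2, between a putative ammonium transporter and elongation factor 2, had 1.96, 1.53 and 1.54. No YPD list called any of these 5 sites. Among the other 10, a site of SKS1-RMI1 was the strongest, with a mean of 4.75 in YPGly and 1 YPD call, in repeat 2. IMA4-HXT9 and IMA5-HXT8, also among these 10, both lie between an isomaltase and a hexose transporter gene. They had means of 2.63 and 1.87 in YPGly and 1 YPD call each, in repeat 2.

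At 6 sites a peak was called in all 4 YPD lists and in no YPGly list. SEC10-RPS31, between an exocyst subunit and a ribosomal protein fused to ubiquitin, had 3.06, 2.40, 2.53 and 2.74 in YPD repeats 1 to 4. AGP1-KCC4, upstream of an amino acid permease gene, had 2.46, 1.95, 1.79 and 2.17. YGR210C-ZPR1 had 1.64, 1.64, 1.60 and 1.69, and SIS1-LST8, between an Hsp40 cochaperone and a TORC1 subunit, had 1.48, 1.37, 1.46 and 1.60. FRT1-MYO2, beside the type V myosin gene, was at 1.10 to 1.34. RPL38-YLR326W was at 1.11 to 1.28. No mean of a YPD-only site exceeded the 2.68 of SEC10-RPS31. The permease gene GNP1 shared this class with AGP1, with 3 YPD calls at GNP1-SMT3 (2.16, 1.86 and 1.99). PUT4-CIN1, beside the proline permease gene PUT4, was instead called in all 7 lists, with means of 3.02 in YPD and 5.40 in YPGly.

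By pathway, most listed genes with a divergent promoter had no site. Of 9 TCA cycle genes with a divergent promoter, 3 had a site (FUM1, IDH1 and MDH2), and 2 of these rose and 1 fell in YPGly under all 3 scalings. Of 5 genes listed under the glyoxylate cycle, gluconeogenesis and acetate use, MLS1 and ATO3 had one, although ATO3 is annotated as a putative ammonium transporter. Of 10 genes of mitochondrial carriers and substrate entry, 3 had one: MPC3 and DLD1, which rose, and AAC1, in YPGly only. In the respiratory chain and ATP synthase list, 2 of 15 genes had a site, ATP14 (which rose) and CYT1, the cytochrome c1 gene, whose means were 1.25 in YPD and 1.31 in YPGly. Of 17 genes of iron uptake and iron-sulfur assembly, ISU1 and FET3 had one. Among all 2840 genes with a divergent promoter, 162 (5.70%) had a site. The lists were drawn up with earlier results of these data known, so their counts are a description.

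None of 12 listed genes of glucose uptake and glycolysis with a divergent promoter had a site, a count near the 5.70% of all genes. That list held the transporter genes HXT1 to HXT7, but not HXT8 and HXT9, whose YPGly-only sites are given above. Of 13 regulators of carbon source use and respiration, only HAP1 had one, and of 24 peroxisome and fatty acid oxidation genes only FAA1, an acyl-CoA synthetase gene, at 1.67 in YPD and 1.64 in YPGly. Of 75 cytosolic ribosomal protein genes, 6 had one. Their 5 sites were all YPD-only: SEC10-RPS31, RPL38-YLR326W, RPL15A-YLR030W (mean 1.93), RPL13B-RPS16A (1.71, with 1 YPGly call) and RPS4A-YJR146W (1.44). None of the 5 holds the Sef1 pattern in 250 bp.

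The paper derived its Sef1 motif, which has this form, from 250 bp around its most enriched YPGly peaks in these data. The shares, distances and ranks of matches given here may thus partly follow from that choice, and they are a description. The Sef1 pattern was present in the 250 bp around 14 of the 84 sites (16.7%), as 16 matches. Windows of the same length at the midpoints of the 1302 divergent promoters without a site, which in short promoters reach into the genes, held it in 12 cases (0.922%). It was found at 23 of 161 tandem promoter sites (14.3%) and at 47 of the 561 sites outside divergent promoters (8.38%). The mean GC content differed as well, 45.2% at divergent promoter sites and 37.0% at the midpoints, and its part in the difference was not tested. Matches lay close to the peaks: the median distance from the center of a match to the site was 16 bp, and 15 of 16 matches were within 50 bp.

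Matches were more frequent at strong sites, a description that was not tested. It may partly follow from the origin of the pattern in strong peaks. Of the 10 sites with a mean of at least 10, 6 held a match, against 6 of 31 between 2 and 10 and 2 of 43 under 2. The 4 strong sites without an exact match were SPT8-ERG3, SDS23-OLE1, MDH2-TRM13 and YPR148C-NCE102. DCP2-MLS1 and KEL3-FUM1 held 2 matches each, the former 1 base apart. One of the 2 matches in DCP2-MLS1, ccgaggttcgg, also occurs at YMR001C-A-MIX17, upstream of a gene for a protein of the mitochondrial intermembrane space. There the enrichments were 3.50, 3.45, 3.15 and 4.33 in YPD and 7.33, 5.41 and 5.72 in YPGly, a centered change of 0.07 ± 0.10 that did not pass (adjusted p = 0.523, limma). The same 11 bases thus lie under a site that rose by 4.17 and under one whose change was near 0 on the same scale. Without centering, the change at YMR001C-A-MIX17 was 0.77 and passed (adjusted p = 2.56e-05, limma). Of the 11 sites that rose, 4 held a match, of the 18 that fell 5, and of the 11 others 2.

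The carbon source response element was found at 3 of 84 sites (3.57%) and at 4 of 1302 midpoints (0.307%), searched by its name as the published consensus on both strands. These 3 sites were DCP2-MLS1, MDH2-TRM13 and YLR255C-HAP1. DCP2-MLS1 and MDH2-TRM13 were among the 5 largest rises, and the match at YLR255C-HAP1 reaches into the coding sequence of YLR255C. In GAL10-GAL1 the match to the Sef1 pattern overlaps by 6 and by 3 bases 2 of the 3 matches to the form of the Gal4 site, CGG and CCG with 11 bases between them. That form was found at 3 of the 84 sites and at 1.92% of the midpoints. TTACCCG, bound by Reb1, was found at 11.9% of the sites and 7.45% of the midpoints, AGGGG (Msn2 and Msn4) at 35.7% and 19.5%, GCACCC (the core of the Aft1 and Aft2 site) at 15.5% and 3.30%, CACGTG (Cbf1) at 8.33% and 5.07%, and CCAAT (the Hap complex) at 28.6% and 38.2%. TGACTCA, the Gcn4 site, was in none of the 84 windows and in 2.23% of the midpoints. At the 161 tandem promoter sites the shares were 7.45% for TTACCCG, 32.3% for AGGGG, 9.94% for GCACCC and 7.45% for CACGTG. They were 37.9% there for CCAAT, 3.73% for TGACTCA and 1.86% for the carbon source response element. All patterns were searched on both strands, and GC content differs between the sets.

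YPGly lists held a larger share of their peaks in divergent promoters, and in tandem promoters as well. The divergent shares were 11.2, 11.3, 10.9 and 11.1% in YPD repeats 1 to 4. They were 19.0, 19.6 and 18.7% in YPGly repeats 1 to 3, and the groups did not overlap. The difference of the means was 7.99 percentage points (two-sided exact permutation test over 35 assignments, p = 0.0286, the smallest this design allows, and 0.0563 after adjustment over 6 tests). Peaks near tRNA genes moved with it. They numbered 166, 227, 208 and 223 in YPD and 62, 33 and 41 in YPGly. With these peaks left out of the total, a choice made after seeing the data, the shares were 16.3, 16.0, 16.5 and 17.6% in YPD and 21.6, 21.5 and 20.9% in YPGly, and the difference was 4.75 points (exact p = 0.0286). It was 1.71 points (exact p = 0.0571) when all lists were also cut to the length of the shortest. Tandem promoter peaks numbered 118 to 161 in the YPD lists, which held 528 to 771 peaks in all. In the YPGly lists, of 373 to 520 peaks, they numbered 143 to 187. The larger share in YPGly was thus not particular to divergent promoters, and whether it differed in size from that in tandem promoters was not tested.

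**Figure D5:**
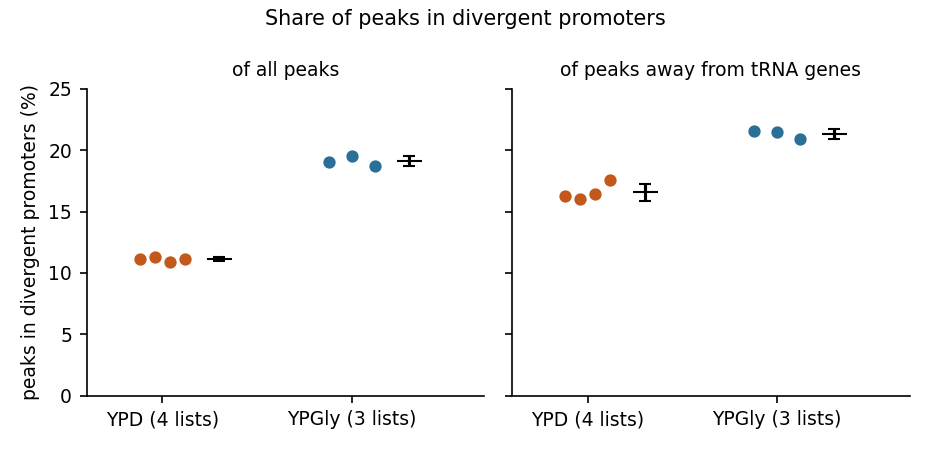
Peaks in divergent promoters as a share of all peaks of a list (left, in %) and of its peaks more than 500 bp from a tRNA gene (right), with 1 point per list and black marks for the mean and SD. On the left the YPD lists sit between 10.9 and 11.3% and the YPGly lists between 18.7 and 19.6%, and on the right the gap is smaller.

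Within a list, peaks in divergent promoters were compared in strength with other peaks. Their median enrichment was 1.97, 1.64, 1.73 and 1.91 in YPD and 2.13, 1.68 and 1.97 in YPGly. For tandem promoter peaks it was 2.35, 1.54, 1.90 and 1.93 in YPD and 2.58, 2.25 and 2.52 in YPGly. The divergent median was the lower in 6 of 7 lists, by 0.20 on average on the log2 scale (log2 ratio -0.20, exact sign-flip permutation test over 7 lists, p = 0.0469, adjusted p = 0.0563), and among peaks with an enrichment of at least 2 this turned to 0.033. Against all other peaks the mean log2 ratio was -0.08 (exact sign-flip permutation test, p = 0.328). That ratio was 0.22 among peaks with an enrichment of at least 2 (exact p = 0.0156) and -0.16 with no tRNA rule (exact p = 0.0313), so its direction depends on these choices. The pattern was present in 14.1 to 18.6% of the divergent promoter peaks of a list, in 13.7 to 17.0% of tandem promoter peaks and in 5.84 to 15.7% of all other peaks. The difference from all other peaks was 6.80 points on average and above 0 in 7 of 7 lists (exact sign-flip permutation test, p = 0.0156, the smallest possible, adjusted p = 0.0563). The difference from tandem promoter peaks was 1.42 points and above 0 in 6 of 7 lists (exact p = 0.0469, adjusted p = 0.0563), and it turned to -5.09 points with 1 mismatch allowed. The lists call many of the same sites, 203 of them in all 7 lists, so agreement between lists rests in part on the same DNA. None of the 6 tests passed after adjustment.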

How the data were processed

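Sef1-TAP ChIP-seq lists of 4 YPD and 3 YPGly repeats were analysed. Per the submitters' processing notes, the authors processed reads with bcl2fastq, FastQC 0.11.8, Trimmomatic 0.36 and Bowtie2 2.3.3 against the R64 genome, with DiffBind 2.10.0 and deepTools among the tools, and called peaks in each ChIP library against its input. The peak caller is not given in the sources used here. The deposited enrichment is a fold ratio of ChIP over input (a maximum likelihood estimate and a lower bound), the deposited score ranks peaks within a list, and the deposited FDR is a p-value type measure adjusted by the authors, from 0.0011 to 0.0496 over the peaks in divergent promoters.

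Genes were the 6002 protein-coding and 275 tRNA genes of the reference annotation (R64, a later release than the authors' R64-2-1). Peak intervals sharing 1 bp or more became 1 site, placed by most of their peaks, with 8 sites of mixed place, 6 of them counted. A site needed 3 calls in a medium. Lists are replicates, which the paper calls biological, although the labels do not say whether repeats were independent cultures. P-values measure the spread between lists only. Shares were compared by exact permutation tests (35 assignments), within-list contrasts by exact sign-flip tests, and sites called in all lists by limma 3.58.1 (R 4.3.3) on log2 enrichment with Benjamini-Hochberg adjustment over 203 sites and a threshold of 0.05. Named promoters are the 10 of highest mean enrichment in each medium, the 6 largest changes in each direction past the threshold, the 5 strongest called in every list of one medium and none of the other, the sites of the gene lists and promoters with 2 sites. Others were chosen after their values were seen. Members and lists were chosen with earlier results of these data known. Alternatives covered peaks of enrichment of at least 2, lists cut to 373 peaks, 500 bp from each ATG, no tRNA rule, the lower bound, no centering, quantile normalization, ranks, a replicate block, 50% reciprocal overlap, 1 mismatch, 150-bp windows and each list left out. Scripts (Python 3.11.15, pandas 2.3.3) were tested on simulated data. Partner libraries without a list were not used here.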

Additional observations from a re-analysis of the deposited data

Results flagged for a closer look

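A pair of contrasts within lists differed between the media at an unadjusted p under 0.05, and neither passed after adjustment. The median enrichment of divergent promoter peaks over that of all other peaks of a list averaged 0.05 ± 0.11 on the log2 scale over the YPD lists (SD, n = 4) and -0.26 ± 0.11 over the YPGly lists (n = 3), a difference of -0.31 (two-sided exact permutation test, p = 0.0286, 0.0571 after adjustment over 4 such tests). The share with the Sef1 pattern was 10.7 ± 1.81 points above that of all other peaks in YPD and 1.58 ± 0.85 points above it in YPGly, a difference of -9.13 points (exact permutation p = 0.0286, adjusted p = 0.0571). In the divergent promoters themselves this share was 16.9% in YPD and 16.5% in YPGly, while in all other peaks it was 6.21% and 14.9%. The other peaks include 33 to 227 peaks near tRNA genes per list, more of them in YPD, and their part in both differences was not tested. Against tandem promoter peaks the differences between the media were -0.27 (exact permutation p = 0.0571) and -2.05 points (exact permutation p = 0.0857).

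No YPD value of a site called in all 4 YPD lists, or of 6 measures per list, stood apart from its group by the Dixon criterion at 95%, in 55 groups tested.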

How the results depend on the processing

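The scaling of the lists decided the split of rises and falls at divergent promoters. Of the 40 shared sites, 11 rose and 18 fell with centering, 24 and 2 without it, and 12 and 12 with quantile normalization. Over all 203 shared sites the counts were 60 and 108, 105 and 18, and 63 and 72. Exact permutation tests on ranks called 0 and 0 after adjustment (lowest adjusted p = 0.0523), and 20 of the 40 sites, or 111 of the 203, had an unadjusted p under 0.05. With at most 500 bp from each ATG, fewer sites were members, and of these 5 rose and 8 fell. The calls of the 40 sites themselves stayed the same at this setting. Leaving out 1 list at a time gave 11 to 13 rises and 16 to 19 falls. Same-numbered YPD and YPGly lists did not deviate together (correlations of -0.33, -0.28 and -0.00 for repeats 1 to 3). Lists of different number gave correlations from -0.30 to 0.41, so these values cannot decide whether the numbers pair the lists. A replicate block gave 11 rises and 16 falls. PKH1-IZH1 and SDS23-OLE1 had centered changes of -0.21 and -0.22 in the main fit. Neither passed with the replicate block, with a reciprocal overlap of 50%, nor without any 1 list other than YPD repeat 2.

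Single sites changed sign as follows. Without centering, PKH1-IZH1 went to 0.49, SDS23-OLE1 to 0.48, FRS2-GAT1 to 0.28, PUF3-YEH1 to 0.23, ZRG8-YER034W to 0.20, ARB1-PHM8 to 0.12, ENV9-SRL1 to 0.12, RPI1-RHO3 to 0.12, YNG1-CYT1 to 0.069, CLN2-BBP1 to 0.060 and SSA1-EFB1 to 0.033. With quantile normalization, SPT8-ERG3 went to -0.12, YPR148C-NCE102 to -0.18, FRS2-GAT1 to 0.20, PUF3-YEH1 to 0.095, ZRG8-YER034W to 0.086 and ARB1-PHM8 to 0.011.

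When only peaks enriched 2-fold or more were kept, the difference in the share of peaks was 4.20 points (exact p = 0.0857) and 2.93 points away from tRNA genes (exact p = 0.143), the log2 ratio to tandem promoter peaks turned to 0.033 (exact p = 0.719) and that to all other peaks to 0.22 (exact p = 0.0156). The counts of sites were then 23 in both media, 4 in YPD only and 9 in YPGly only. With lists of equal length, the difference away from tRNA genes was 1.71 points and 7 sites were YPD-only. With at most 500 bp from each ATG, 22 sites were in both media, 10 in YPD only and 7 in YPGly only, and the difference in shares was 2.99 points. With no tRNA rule, 47 sites were YPD-only and the log2 ratios were -0.15 to tandem promoter peaks (exact p = 0.0781) and -0.16 to all other peaks (exact p = 0.0313). The motif difference from tandem promoter peaks turned to -5.09 points with 1 mismatch.

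With 1 list left out, the difference in shares was 7.76 to 8.18 points and 4.55 to 5.08 points away from tRNA genes. The smallest p possible in the exact permutation test is then 0.0667 without a YPGly list and 0.1 without a YPD list. The log2 ratio to tandem promoter peaks was -0.24 to -0.16, that to all other peaks -0.13 to -0.03, and the motif differences 1.09 to 1.80 and 5.85 to 7.83 points. The counts were 40 to 49 sites in both media, 10 to 17 in YPD only (10 without YPD repeat 2, 3 or 4) and 20 to 27 in YPGly only. The causes of these changes were not tested. The depth of each list is unknown, so a site without a call in a list may lie just under that list's detection.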
